A study of Rattus norvegicus with 9 samples.

Results

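T and NK cell transcripts were read in whole bone of the rat through 10 genes: the CD3 chains Cd3d, Cd3e and Cd3g, the co-receptors Cd4 and Cd8a, the surface receptors Cd2 and Cd5, the kinases Lck and Zap70, and the granule protein Nkg7. Members were the probe sets whose platform entry names only 1 of these genes, which gave 14 probe sets for all 10 genes, out of 31042 probe sets tested on the array. RNA came from normal bone of male CD rats of about 110 g, with 4 arrays of skull (calvaria) and 5 of limb (ulna), and the labels name no treatment, allele or age. The methods give each extract as a pool of several rats and state that soft tissue, sutures and epiphyses were removed. They state removal of marrow for the cultured bone cells and not for these bones. Skeletal muscle RNA differed with the site: 13 muscle probe sets summed to a signal of 102.2 to 194.9 in the skull and 10218 to 26055 in the limb. Its part in the differences of the members was not tested. For ulna 1, 2, 3 and 4 the tissue field of the labels names the skull, against the title and the source name. Hoxa9, a gene of limb position, had a mean signal of 69.6 ± 8.66 (SD, n = 5) on the limb arrays and 2.81 ± 1.35 (SD, n = 4) on the skull arrays, with no overlap, and the titles were followed.

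A T cell recognises its target through an antigen receptor that reaches the surface and signals only with the CD3 chains. CD4 or CD8 holds the receptor to the presenting molecule and brings the kinase LCK, which phosphorylates CD3 so that ZAP-70 can dock and pass the signal on. CD2 and CD5 tune that signal from the surface. NK cells lack the antigen receptor and, like cytotoxic T cells, kill with granules, in whose membrane NKG7 lies. Mature T and NK cells live in the marrow as a minority among the cells that make blood. In the rat, CD4 is also carried by monocytes and macrophages.

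Signals are the deposited MAS5 intensities brought to a common array median, and 33.82 is the median of all of them. The highest signal of a bacterial control with no target in the sample, 8.34, serves as the background level. A probe set was called where the limma adjusted p was below 0.05 and the sites differed by at least 2-fold, and every difference is skull minus limb on the log2 scale after a floor at 2.51. In whole bone, fewer cells of a type and less RNA in each cell cannot be told apart. Probe sets bind with different strength, so genes are not ranked by signal and the background level is only a rough mark. Sums over a list are compared between sites only and are weighted to its brightest probe sets.

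Of the 14 probe sets, 2 were called (14.3%, against 6.24% of all probe sets tested). Nkg7 was the 1 called lower in the skull, where 3.36% of all probe sets were called lower, and Cd4 was the 1 called higher, where 2.89% were. The same 2 passed an adjusted p below 0.05 alone (21.5% of all) and had arrays that did not overlap between the sites (21.3% of all). The median difference of the 14 was -0.11, beside -0.01 over all probe sets, with 8 below 0 and 6 above. With 1 probe set called in each direction, the counts give no common direction, and they cannot exclude a smaller shared shift. The summed signal of the 14 was 644.6 to 760.5 in the skull and 1012.2 to 1136.9 in the limb, without overlap. That sum is weighted to the brightest probe sets. Their mean log2 signal per array overlapped, at 3.93 to 4.27 in the skull and 4.15 to 4.40 in the limb. Only 6 of the 14 exceeded the background level on all 9 arrays.

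**Figure D1:**
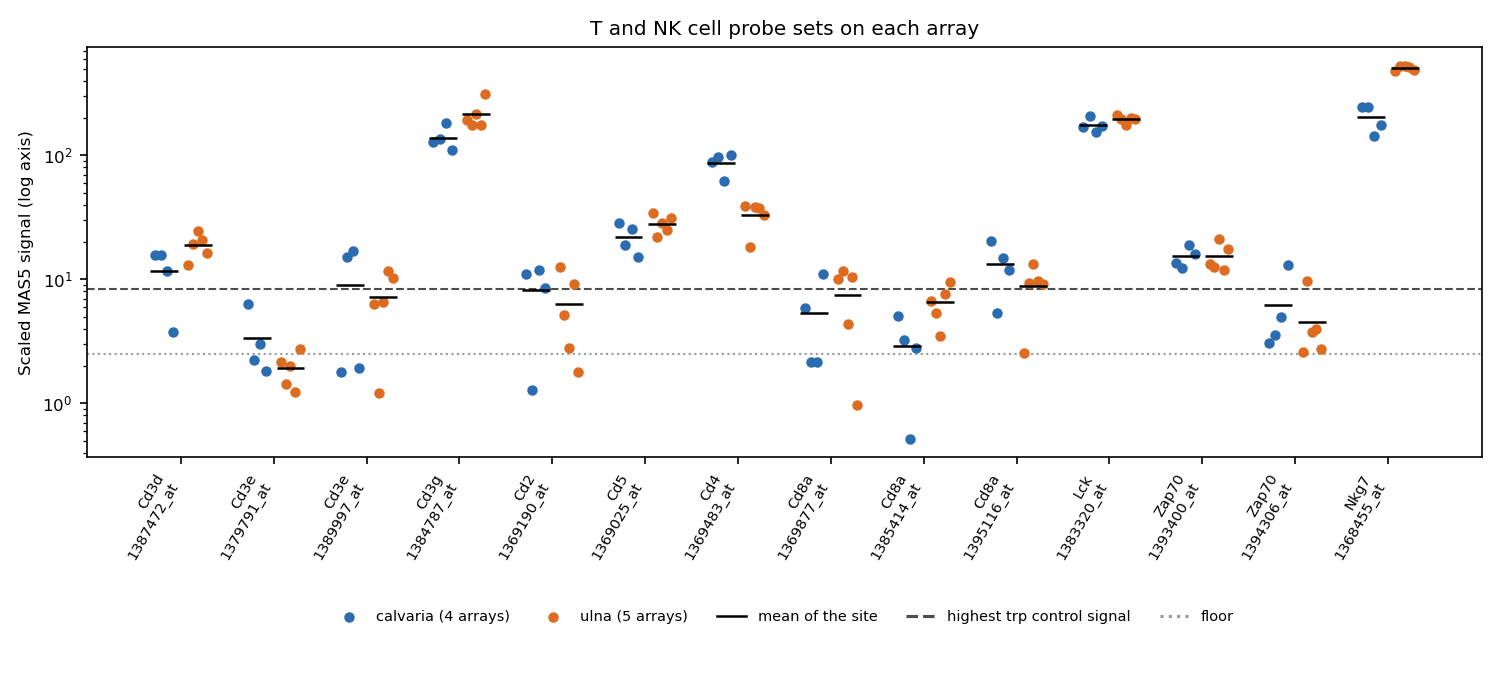
Scaled MAS5 signal (log axis) of each of the 14 probe sets on the 4 skull (calvaria, blue) and 5 limb (ulna, orange) arrays. Black bars are site means, the dashed line is the highest bacterial trp control signal (8.34) and the dotted line the floor (2.51). The sites separate for Cd4 and Nkg7, and many points of Cd3e, Cd2, Cd8a and Zap70 lie below the dashed line.

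The start regions of 3 members are shown first, that of Nkg7 because its signal was called lower in the skull, and those of Cd3g and Cd3d because these CD3 genes start next to each other on opposite strands. Each window runs from 250 bases before to 50 bases after the annotated start in RefSeq (GRCr8), 5′ to 3′ on the strand of the gene. Of the 10 genes, 9 had a window, and Lck had 2. Capitals mark 2 short motifs read on both strands: TGTGGT, the core letters bound by RUNX factors, and GGAAG, core letters of many ETS factor sites. In the windows shown, matches of the 2 motifs do not overlap. Among the 33469 windows of the genome, TGTGGT was found in 17.3% and GGAAG in 70.1%.
Nkg7, chr1:102981247-102981546, plus strand: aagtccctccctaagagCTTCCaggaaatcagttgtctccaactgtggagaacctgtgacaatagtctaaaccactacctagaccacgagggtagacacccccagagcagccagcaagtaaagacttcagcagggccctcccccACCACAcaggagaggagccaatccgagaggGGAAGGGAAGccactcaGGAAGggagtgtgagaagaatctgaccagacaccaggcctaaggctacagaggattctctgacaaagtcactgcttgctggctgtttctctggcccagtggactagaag
Cd3g, chr8:54183869-54184168, minus strand: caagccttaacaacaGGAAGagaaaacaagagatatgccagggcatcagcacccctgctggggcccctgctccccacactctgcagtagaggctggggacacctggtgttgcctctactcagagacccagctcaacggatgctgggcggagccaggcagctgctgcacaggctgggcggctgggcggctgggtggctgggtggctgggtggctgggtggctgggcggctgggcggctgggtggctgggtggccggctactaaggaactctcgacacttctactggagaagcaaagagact
Cd3d, chr8:54185269-54185568, plus strand: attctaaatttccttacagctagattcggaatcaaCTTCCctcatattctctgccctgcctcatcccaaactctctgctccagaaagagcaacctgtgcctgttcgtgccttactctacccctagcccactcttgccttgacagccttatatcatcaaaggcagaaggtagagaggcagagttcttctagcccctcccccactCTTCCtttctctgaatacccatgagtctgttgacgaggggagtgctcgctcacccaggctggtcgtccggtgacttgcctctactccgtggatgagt
The Nkg7 window held 1 RUNX and 4 ETS matches. The Cd3g window held no RUNX match and 1 ETS match, and the Cd3d window no RUNX match and 2 ETS matches. The Cd3g and Cd3d windows lie 1100 bases apart. A match describes the letters of the window and not a bound site.

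Nkg7, a membrane protein of cytotoxic granules in NK cells and cytotoxic T cells, was lower in the skull on every array. The skull arrays 1 to 4 read 247.0, 243.5, 143.3 and 175.1, and the limb arrays 1 to 5 read 479.6, 522.7, 528.8, 516.4 and 491.8. The highest skull array thus lay well under the lowest limb array, and the limb arrays were closer together than the skull arrays. Means were 202.2 ± 51.4 (SD, n = 4) in the skull and 507.8 ± 21.2 (SD, n = 5) in the limb, a skull to limb ratio of 0.398. The difference was -1.36 ± 0.15 SE (95% interval -1.72 to -1.01, limma adjusted p = 0.000316).

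Calvaria 3 and 4, the lowest arrays for Nkg7, also had the highest 3′ to 5′ control ratios, a sign that fewer labelled RNAs reached the 5′ end. On the log2 scale the beta-actin ratio was 1.035 and 1.024 there, 0.747 and 0.838 on the other skull arrays, and 0.571 to 0.858 in the limb. Without these 2 arrays the Nkg7 difference was -1.05 (limma adjusted p = 0.000523) and the call remained. Of the marrow lists, most neutrophil and erythroid probe sets were also called lower in the skull, and no B cell probe set was. Of 7 neutrophil probe sets 5 were called lower in the skull, with a summed signal of 8913 to 11086 there and 14482 to 19094 in the limb. Of 14 erythroid probe sets 11 were called lower, with sums of 12913 to 13666 and 19706 to 25514. Of 10 B cell probe sets none was called, although 1 passed an adjusted p below 0.05 (Ms4a1, the B cell surface protein CD20, at -0.56), and their sums of 4300 to 5785 and 5153 to 6432 overlapped. Every probe set of the neutrophil and B cell lists exceeded the background level on all arrays, as did 13 of the 14 of the erythroid list, and the part of these cells in the Nkg7 difference was not tested.

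Cd4 ran the other way. The co-receptor of helper T cells read 88.7, 96.1, 62.4 and 101.5 on the skull arrays and 38.9, 18.4, 38.2, 37.9 and 33.1 on the limb arrays. Its lowest skull array was above its highest limb array, and ulna 2 lay apart below the rest of the limb. Means were 87.2 ± 17.3 (SD, n = 4) and 33.3 ± 8.66 (SD, n = 5), a skull to limb ratio of 2.62. The difference was 1.42 ± 0.25 SE (95% interval 0.85 to 1.99, limma adjusted p = 0.00364), and 1.21 without ulna 2 (limma adjusted p = 0.00178).

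Macrophages, which carry CD4 in the rat, and osteoclasts were read beside it. Of 14 macrophage and monocyte probe sets 2 were called higher in the skull: Csf1r, the receptor for the macrophage growth factor (952.99 against 328.0, difference 1.53), and Cd68, a lysosomal protein of macrophages and osteoclasts (1216 against 464.2, difference 1.38). None was called lower, the median of the list was -0.03, and its summed signal was 8801 to 10546 in the skull and 7581 to 9274 in the limb. At an adjusted p below 0.05 alone, 4 were higher and 1 lower. The lower was Fcgr1a, without overlap between the sites (difference -0.55, limma adjusted p = 0.00333). All 14 exceeded the background level on every array. Of 7 osteoclast probe sets 6 were called higher, with sums of 10297 to 14898 in the skull and 3763 to 4685 in the limb. The part of these cells in the Cd4 difference was not tested.

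**Figure D2:**
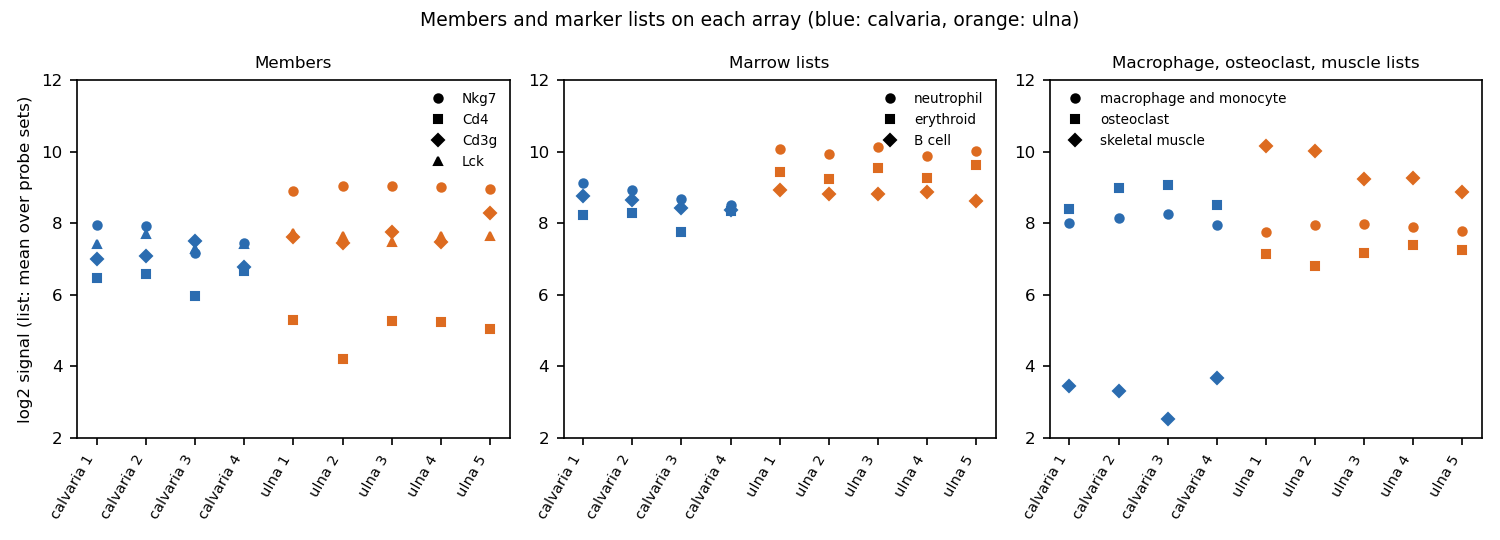
Log2 scaled signal on each of the 9 arrays (blue skull, orange limb) for 4 members (left), and mean log2 signal over the probe sets of marrow lists (middle) and of macrophage, osteoclast and skeletal muscle lists (right). Nkg7 and the neutrophil, erythroid and muscle lists sat lower on all 4 skull arrays, Cd4 and the osteoclast list higher, and heights are not comparable between genes.

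Cd8a, the co-receptor chain of cytotoxic T cells, was read by 3 probe sets and none was called. The first (1369877_at) gave 5.88, 2.14, 2.15 and 11.1 in the skull and 10.1, 11.7, 4.40, 10.4 and 0.97 in the limb, a difference of -0.58 (95% interval -1.96 to 0.81). The second (1385414_at) gave 5.11, 3.24, 0.52 and 2.80 in the skull and 6.73, 5.33, 3.48, 7.67 and 9.50 in the limb. Its sites overlapped only through calvaria 1 and ulna 3, and its difference of -0.91 (95% interval -1.66 to -0.17) had a limma adjusted p of 0.0826. Without calvaria 1 it was -1.13 (limma adjusted p = 0.0449) and without ulna 3 -1.12 (limma adjusted p = 0.0274), and in both cases it was called lower. All its signals but that of ulna 5 were below the background level. The third (1395116_at) gave 20.4, 5.40, 14.97 and 11.98 in the skull and 2.54, 9.27, 13.3, 9.65 and 9.24 in the limb, a difference of 0.61 (95% interval -0.63 to 1.86). The 3 probe sets of Cd8a therefore disagreed in direction, with overlapping sites in each.

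Among the CD3 chains, Cd3g, the gamma chain, was read above the background level on all 9 arrays. Its probe set is entered under a record other than a curated RefSeq mRNA. It gave 129.0, 134.6, 181.1 and 110.1 in the skull and 194.0, 175.9, 213.9, 176.5 and 311.5 in the limb. Calvaria 3 reached into the limb range, and ulna 5 stood above all others. Means were 138.7 ± 30.1 (SD, n = 4) and 214.3 ± 56.5 (SD, n = 5), a ratio of 0.647. The difference of -0.62 ± 0.20 SE (95% interval -1.06 to -0.17) had a limma adjusted p of 0.0536 and lay below the 2-fold threshold.

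Cd3d, the delta chain, gave 15.6, 15.8, 11.7 and 3.80 in the skull and 13.2, 19.1, 24.5, 21.0 and 16.4 in the limb. Calvaria 4 was its only array under the background level. The difference was -0.85 ± 0.44 SE (95% interval -1.85 to 0.15, limma adjusted p = 0.229), and -0.37 without calvaria 4. Cd3e, the epsilon chain, had 2 probe sets. One (1379791_at) stayed below the background level on all arrays, from 1.83 to 6.30 in the skull and from 1.24 to 2.74 in the limb. The other (1389997_at) gave 1.78, 15.1, 17.0 and 1.94 in the skull and 6.28, 1.22, 6.60, 11.7 and 10.3 in the limb, a scatter within each site far wider than the difference of -0.06 (95% interval -1.72 to 1.60). No direction can be read for Cd3e.

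Cd2, the adhesion receptor that binds CD58 or CD48 on the partner cell, gave 11.1, 1.29, 11.9 and 8.58 in the skull and 12.5, 5.17, 2.80, 9.11 and 1.80 in the limb. The sites overlapped fully, with signals on both sides of the background level, and the difference was 0.47 (95% interval -0.96 to 1.89). Cd5, a surface inhibitor of receptor signalling on T cells and some B cells, gave 28.6, 19.0, 25.6 and 15.3 in the skull and 34.3, 21.8, 28.3, 25.1 and 31.0 in the limb. It was above the background level everywhere, its sites overlapped, and the difference was -0.37 ± 0.23 SE (95% interval -0.90 to 0.16, limma adjusted p = 0.332).

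Lck, the kinase that starts the receptor signal, had the narrowest interval of the 14 probe sets. It gave 169.3, 206.1, 154.7 and 171.4 in the skull and 210.2, 198.0, 176.1, 198.7 and 198.2 in the limb, with calvaria 2 inside the limb range. The difference was -0.17 ± 0.09 SE (95% interval -0.36 to 0.03, limma adjusted p = 0.229), so that a 2-fold difference between the sites lay outside the interval. Zap70, the kinase that docks on phosphorylated CD3, had 2 probe sets. The first (1393400_at) gave 13.6, 12.4, 19.1 and 16.1 in the skull and 13.4, 12.5, 21.3, 12.002 and 17.6 in the limb, above the background level throughout, with a difference of 0.01 (95% interval -0.56 to 0.58). The second (1394306_at) gave 3.09, 3.55, 4.96 and 13.1 in the skull and 2.62, 9.65, 3.75, 4.01 and 2.74 in the limb, below that level except on calvaria 4 and ulna 2, with a difference of 0.37 (95% interval -0.80 to 1.53).

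**Figure D3:**
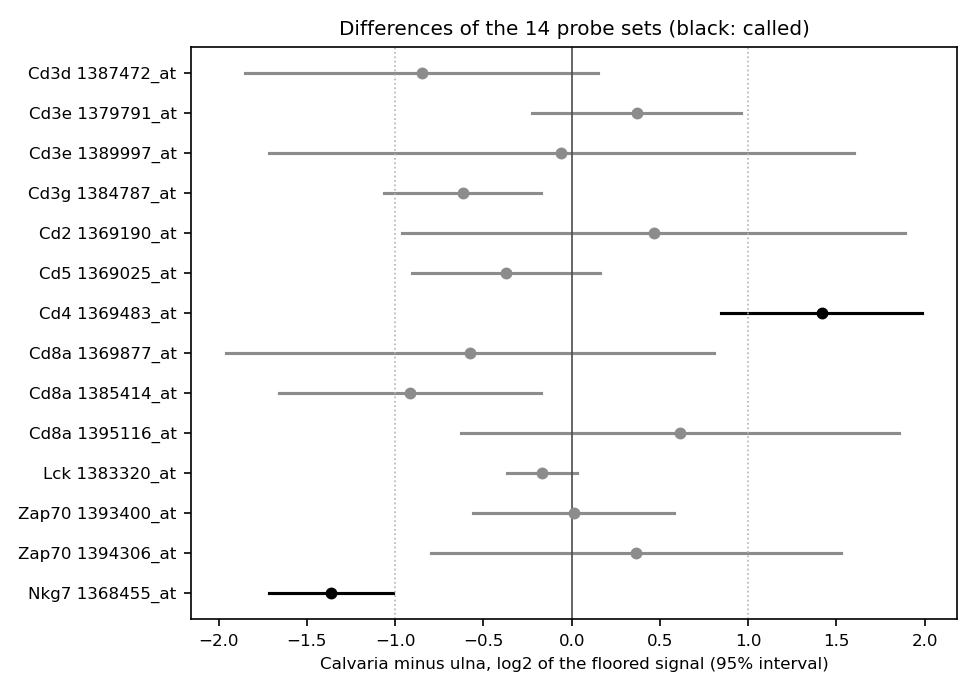
Difference of each of the 14 probe sets, skull minus limb, in log2 of the floored signal, with its 95% interval. Dotted lines mark the 2-fold thresholds. Nkg7 (-1.36) and Cd4 (1.42), in black, were called, the interval of Lck is narrow around -0.17, and those of Cd3e, Cd2 and Cd8a are wide.

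The 5 probe sets whose course over the 9 arrays lay closest to that of Cd3g were those of Fbxo30, Tk2, Sppl2a, Sec14l2 and Scrn3. Their Euclidean distances between centred log2 profiles were 0.49 to 0.52, against a median of 1.35 over 12443 probe sets compared. Differences were -0.64 for Fbxo30, -0.45 for Tk2, -0.45 for Sppl2a, -0.69 for Sec14l2 and -0.57 for Scrn3. None of the 5 is a member or belongs to the T and NK cell lists below.

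The wider T and NK cell machinery was read in 5 lists with 101 probe sets of 77 genes, of which 2 were called higher in the skull (2.89% of all probe sets) and 10 lower (3.36% of all). The calls of Prkcq, Fyb1, Tcf7, Bcl11b and Unc13d held under 20 of 20 alternative settings. The median difference over the 101 was -0.14, with 60 below 0 and 41 above. The antigen receptor chains themselves (Trac, Trbc1, Trbc2, Trdc and Trgc1) had no probe set with a single name and were not analysed here.

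Of 12 probe sets of the receptor and its partners, 1 was called, lower in the skull, and the list median was -0.04. It was Cd6, a surface regulator related to CD5, which gave 3.17, 2.05, 1.31 and 11.6 in the skull and 11.9, 11.6, 28.8, 14.4 and 12.03 in the limb (difference -1.91 ± 0.51 SE, limma adjusted p = 0.0255). Only 1 of the 4 skull signals exceeded the background level, so the size of the difference is not resolved, and the call held under 11 of 20 alternative settings. Cd247, the zeta chain of the receptor complex, had differences of -0.06 and 0.07 on its 2 probe sets. Both probe sets of Ptprc, the pan-leukocyte phosphatase CD45, passed the adjusted p without reaching 2-fold (-0.67 and -0.59). Cd247 and Ptprc were chosen after their values were seen.

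Of 24 probe sets of receptor signalling, 3 were called lower and none higher, and the list median was -0.03. Prkcq, the kinase PKC-theta of T cells and skeletal muscle, gave 57.7, 58.5, 48.3 and 40.9 in the skull and 237.4, 190.1, 184.4, 190.4 and 221.2 in the limb (difference -2.002 ± 0.13 SE, limma adjusted p = 2.6e-05). Of 13 skeletal muscle probe sets 12 were called lower in the skull, where their summed signal was 102.2 to 194.9 against 10218 to 26055 in the limb, and the part of muscle in the Prkcq difference was not tested. Fyb1, an adaptor of T cells and myeloid cells, gave 206.6, 146.2, 154.2 and 166.8 in the skull and 417.0, 475.9, 376.1, 477.5 and 438.7 in the limb (-1.38, limma adjusted p = 6.6e-05). Its second probe set differed by -0.97, just under 2-fold. Grap2, the adaptor GADS that joins LAT to SLP-76, had means of 18.7 and 56.8 (-1.88, limma adjusted p = 0.0317), and its call held under 12 of 20 alternative settings.

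Of 17 probe sets of T cell transcription factors, 2 were called higher and 2 lower, and the list median was 0.21. Tcf7, the factor TCF-1 of T cells that also acts at the end of Wnt signalling in other cells, gave 178.4, 234.3, 237.6 and 183.3 in the skull and 65.2, 62.1, 44.7, 62.2 and 62.9 in the limb (1.81 ± 0.14 SE, limma adjusted p = 5.6e-05). Bcl11b, a factor of T cell commitment that other tissues use too, was called higher on 1 of 3 probe sets, with 41.7, 33.5, 13.4 and 15.5 in the skull. That probe set never exceeded the background level in the limb (mean 2.62, limma adjusted p = 0.000983 between the sites). Its skull signal, averaged on the log2 scale, was 2.78-fold that level. The other probe sets of Bcl11b differed by 0.40 and 0.96 and were not called. Gata3, a factor of helper T cells and of several epithelial and innate lineages, was lower on both of its probe sets, with means of 7.34 and 25.2 on the first (-1.87, limma adjusted p = 0.0150) and 10.8 and 22.6 on the second (-1.06, limma adjusted p = 0.0431). The first exceeded the background level on 2 of 4 skull arrays, so its size is not resolved. Its call ended when 16 was added to each signal before the log2 and no floor was set, and that of the second held under 7 of 20 alternative settings.

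Of 20 probe sets of activation and traffic, 1 was called, lower in the skull, and the list median was -0.17. Xcl1, a chemokine of activated cytotoxic cells, had a mean of 1.41 in the skull, never above the background level, and 7.54 in the limb, above it on 2 of 5 arrays (limma adjusted p = 0.0497). No fold can be given for it, and the call held under 4 of 20 alternative settings.

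Of 28 probe sets of cytotoxic granules and NK cells, 3 were called lower and none higher, and the list median of -0.64 was the lowest of the 5 lists. A further 6 probe sets passed the adjusted p in the same direction without reaching 2-fold. They were those of Gzmm, Srgn, Hcst and Fcgr3a and the uncalled ones of Rab27a. With the called ones, 9 of the 28 passed it lower in the skull, beside 3701 of all 31042 probe sets. Only 12 of the 28 exceeded the background level on all 9 arrays. Unc13d, which readies granules for release in many blood cells, gave 28.4, 15.01, 25.7 and 41.4 in the skull and 75.7, 59.6, 73.9, 98.3 and 74.4 in the limb (-1.54 ± 0.27 SE, limma adjusted p = 0.00358). Rab27a, the GTPase that docks granules in cytotoxic cells and neutrophils alike, was called on 1 of 3 probe sets (-1.03, limma adjusted p = 0.00427), and the others differed by -0.70 and -0.81 without overlap between the sites. That call held under 12 of 20 alternative settings. Klrg1, an inhibitory receptor of NK and T cells, had means of 6.17 and 18.4 (-1.83, limma adjusted p = 0.0474). It exceeded the background level on 1 of 4 skull arrays, so the size is not resolved, and its call held under 7 of 20 alternative settings. None of 3 killing proteins, named here after their values were seen, was called. Prf1, perforin, differed by 0.15 with means of 14.3 and 11.9, above the background level on 2 of 4 skull and 4 of 5 limb arrays. Gzma, granzyme A, stayed below that level on all arrays. The first probe set of Gzmb, granzyme B, differed by -0.90 (limma adjusted p = 0.243), with 2 of 4 skull arrays above that level. The second never exceeded it in the skull (mean 4.16, against 11.7 in the limb, limma adjusted p = 0.0597), so no size is given. Klrk1 and Gzmk of this list, also named after their values were seen, exceeded the background level on all 9 arrays. They differed by 0.16 and -0.20 and were not called.

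**Figure D4:**
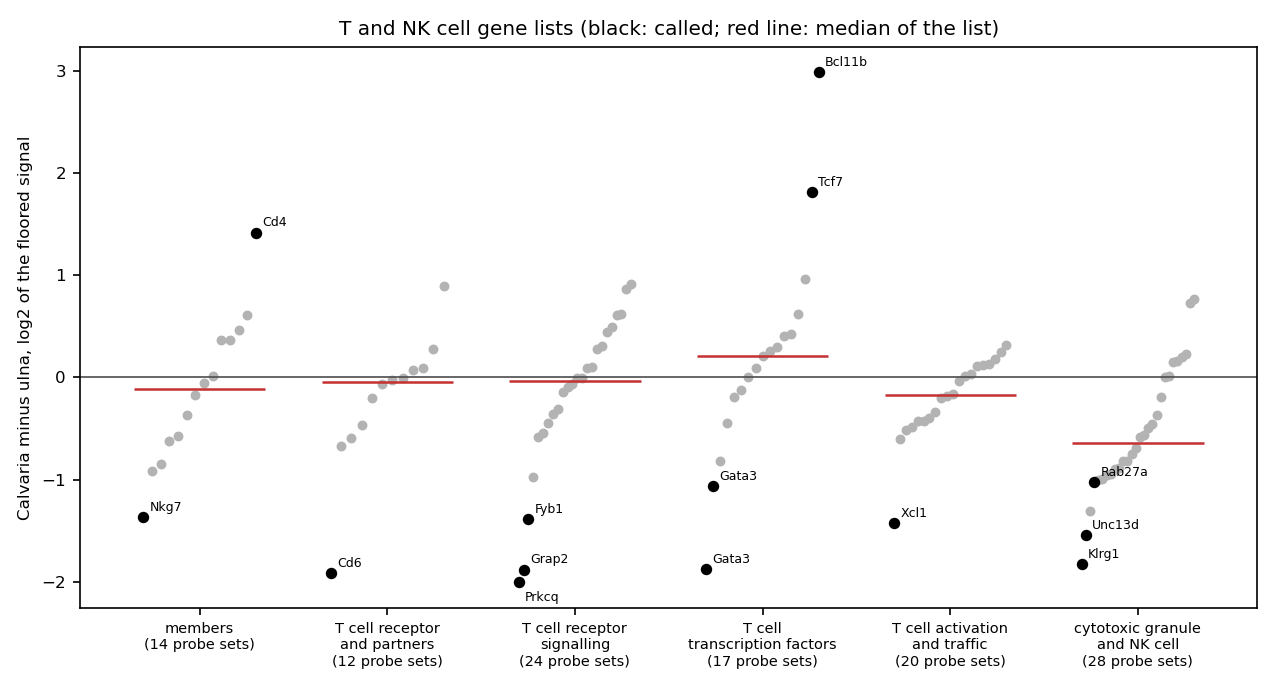
Difference of every probe set of the 10 members and of the 5 T and NK cell lists, skull minus limb, in log2 of the floored signal. Black points were called and red lines are list medians, the lowest of which is that of cytotoxic granules and NK cells (-0.64). In that list 12 of 28 probe sets exceeded the background level on all arrays. Each called point carries its gene name.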

How the data were processed

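Total RNA of whole bone was hybridised to 9 rat GeneChips (4 skull, 5 limb). The deposited intensity values are MAS5 signals, 1 per probe set and array, which the authors had scaled to a common trimmed mean. Array medians lay between 33.01 and 36.59, no 2 arrays were identical, and the number of arrays limits the precision. Signals were scaled so that the median over 31042 probe sets without controls was the same on every array (the mean of the array medians), floored at the 10th percentile of all values (2.51) and taken to log2. The floor alters differences of dim probe sets in either direction. Without it, Cd8a (1385414_at) went from -0.91 to -1.48 and Cd2 from 0.47 to 0.32. Samples were grouped by title. Sites were compared with limma 3.58.1 under R 4.3.3 (lmFit, eBayes with trend, two-sided, Benjamini-Hochberg over all probe sets, called at 0.05 and 2-fold). The same code was run on simulated data with shifts placed only in probe sets brighter than the median. Recovery of shifts in dim probe sets was therefore not tested. Names came from the platform table, updated through gene identifiers. Probe sets with several names or none named no gene. For the members, 6 probe sets are entered there under a curated RefSeq mRNA and 8 under other records. Those of Cd3g and Lck are among the 8.

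The members and lists were chosen with earlier results of these data known. Named genes were all members, in each list the 3 called genes with the smallest adjusted p, the 5 nearest profiles to Cd3g, and Hoxa9. Csf1r, Cd68, Fcgr1a and Ms4a1 were chosen after their values were seen. Alternatives changed the scaling, floor, filter, variance model, array weights, block, test and arrays. The methods give the groups of rats for skull and limb bones together and do not state whether each group supplied both. The main fit does not pair the pools, and p-values measure the spread between pools.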

Additional observations from a re-analysis of the deposited data

Results flagged for a closer look

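In 3 of the 28 groups formed by a member probe set and a site, 1 array stood apart from the rest of its group by Dixon's criterion at 95%, which chance meets in about 1 in 20 groups. Cd3g read 311.5 on ulna 5, with 213.9 as the next limb value (gap over range 0.719), and without ulna 5 its difference was -0.47 (limma adjusted p = 0.0648). Cd4 read 18.35 on ulna 2, with 33.14 as the next limb value (0.719). The second probe set of Zap70 (1394306_at) read 9.649 on ulna 2, with 4.012 as the next limb value (0.802). The first of these lay just above the background level of 8.34 and the next limb value below it.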

How the results depend on the processing

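Nkg7 was called lower in 20 of 20 alternatives (-1.47 to -1.05) and Cd4 higher in 20 of 20 (1.07 to 1.57). Cd3g was called in none of the 20 (-0.75 to -0.47) and passed an adjusted p below 0.05 in 5. Leaving out 1 array at a time gave 1 to 2 members called lower, 2 without calvaria 1 or ulna 3, where Cd8a (1385414_at) was added. The 10 probe sets of the T and NK cell lists called lower became 6 with signals as deposited, 6 with a floor at the 25th percentile, 4 with log2(signal + 16), 5 with the methods' 2-group test, 6 without calvaria 3 and 4 (chosen after seeing the data), and 4 to 9 with 1 array left out, with 4 without ulna 3 and 6 without calvaria 3 or ulna 1. With log2(signal + 16), calls over all probe sets fell from 896 higher and 1042 lower to 437 and 595.

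Near 0, the sign of 3 member probe sets turned. Cd3e (1389997_at, -0.06) was 0.28 with the higher floor, 0.062 with log2(signal + 16), 0.087 with array weights and -0.53 to 0.39 with 1 array left out. Zap70 (1393400_at, 0.01) was -0.027 after quantile normalization, -0.20 without calvaria 3 and 4, and -0.10 to 0.14 with 1 array left out. Zap70 (1394306_at, 0.37) was -0.28 without calvaria 3 and 4 and -0.083 (without calvaria 4) to 0.68 with 1 array left out. The cause was not tested.

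With the replicate block, which leaves out ulna 5, Cd3e (1389997_at) was 0.10, 1 member was called higher and 1 lower, and the lists had 7 called lower. Deviations of arrays with the same number correlated at 0.119, 0.000345, 0.0158 and 0.148. Those of arrays with different numbers correlated at -0.154 to 0.0796, below the values of numbers 1 and 4. These correlations do not settle whether the numbers pair the arrays, and the block was kept as an alternative only. No member's call changed under the block, and Cd3g had a limma adjusted p of 0.0346. Signals at or below 8.34, found on at least 1 array for 8 of the 14 member probe sets, do not resolve a difference.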
